A study of Canis lupus familiaris with 32 samples.

Results

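Gene expression in the hip joint capsule of dogs affected by hip dysplasia was set against that of adult control dogs. The comparison used the 4 libraries labelled affected capsule and the 5 labelled control capsule, 9 of the 32 libraries in the series, and each of the 9 came from a different dog. Affected replicate 1 was an adult, affected replicates 2, 3 and 4 were aged 4 months, and every control was an adult. The 3 affected dogs aged 4 months also gave a teres ligament (affected ligament replicates 5 to 7), and 1 control dog gave both control capsule replicate 3 and control ligament replicate 1. The other groups used here for levels were 6 capsules and 4 ligaments of young dogs under 1 month of age, 7 affected ligaments (4 from adults), 3 control ligaments from adults and 3 embryonic hips. The labels used here give no breed, sex or severity of disease, and no treatment or deleted gene. Affected and control capsules thus differed both in disease label and, for 3 of 4 affected dogs, in age class, and these cannot be told apart in those 3 dogs.

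The hip joint capsule is a fibrous sleeve that holds the femoral head in the socket. Its outer layer is dense connective tissue rich in collagen laid down by fibroblasts, and its inner face is the synovial membrane, which makes joint fluid. In developmental dysplasia of the hip the joint is lax or shallow during growth, and in dogs the disorder is inherited in a complex way. RNA was depleted of ribosomal RNA and sequenced strand-specifically, so each value is a count of fragments from the whole tissue piece. In such bulk tissue, fewer cells of a type and less RNA per cell cannot be told apart. The table lists genes by Ensembl identifier only and none of the 24580 identifiers could be paired with a symbol, so no gene is named here and the tissue labels were not checked against marker genes.

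The 9 capsule libraries held between 2857235 and 5936824 fragments. Of the 24580 genes, 12718 passed the filter on low counts and were tested. Of the 11862 that did not pass, 6019 had no fragment in any of the 9 libraries. Another 3 of the untested genes had fragments in all 4 affected and in no control library, and 5 had fragments in all 5 control and in no affected library.

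Affected capsules differed from adult control capsules in 30 genes at an edgeR adjusted p under 0.05, 0.236% of the 12718 tested. Of these, 17 were higher in affected capsules (0.134% of genes tested) and 13 were lower (0.102%). The sizes were large: the 17 higher genes rose by 1.66 to 4.23 on the log2 scale (median 2.33), and the 13 lower genes had log2 fold changes between -1.26 and -6.06 (median -2.06). Over all genes tested the median log2 fold change was 0.02, and 52.5% of values were positive. At an unadjusted p under 0.05 edgeR listed 783 genes (6.16%), where a share near 0.05 would be listed if no gene differed. DESeq2 called 141 genes at an adjusted p under 0.05, 83 higher and 58 lower, which included all 30. On the authors' FPKM values limma called 10 genes, 3 higher and 7 lower.

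**Figure D1:**
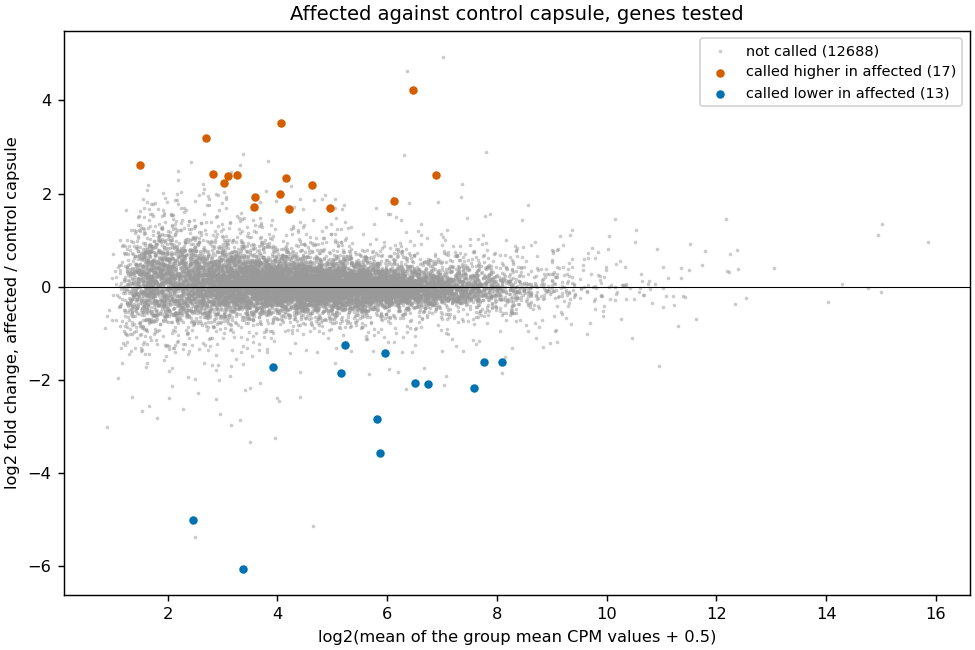
Log2 fold change of affected against control capsule (vertical axis) by the log2 of the mean CPM + 0.5 (horizontal axis) for the 12718 genes tested, with 17 genes called higher in orange, 13 called lower in blue and the rest in grey. Called genes lie away from the zero line at low and middle levels, and some grey points lie as far from zero as the called ones.

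The number of calls rested on single libraries. Without affected replicate 1, the adult, 41 genes were called. The counts were 10, 4 and 4 when affected replicate 2, 3 or 4 was dropped. Leaving out control replicates 1, 2, 3, 4 and 5 left 2, 18, 7, 11 and 7 genes. Of the 30 genes, 1 was called in all 9 of these fits, 5 were called in 5 or more, 21 in 2 or fewer and 3 in none. All 30 genes had the same sign in every one of the 9 fits. This was given beforehand, because the affected and control libraries did not overlap in any of the 30 genes.

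**Figure D2:**
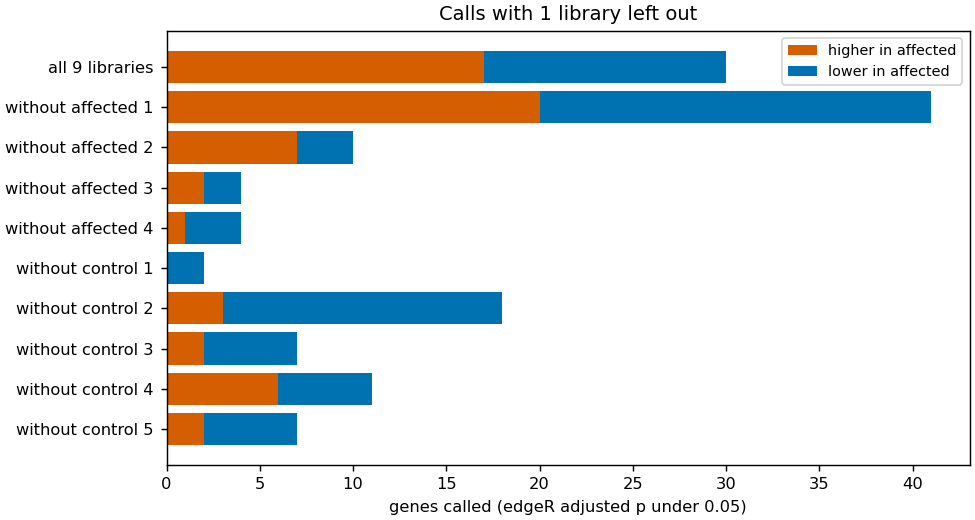
Number of genes called (horizontal axis; edgeR adjusted p under 0.05) with all 9 libraries and with each library left out in turn, split into genes higher (orange) and lower (blue) in affected capsules. The bars run from 2 genes without control replicate 1 to 41 without affected replicate 1.

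The gene with the smallest adjusted p was ENSCAFG00000017302, which was close to undetected in affected capsules. It had 0, 3, 2 and 0 fragments in affected replicates 1 to 4, or 0, 0.564, 0.39 and 0 CPM (the fragment count relative to the library total, on library sizes scaled over the 9 libraries). In control replicates 1 to 5 it stood at 17.9, 14.4, 16.8, 39.5 and 9.13 CPM, from 420 fragments in all. Every control lay above every affected library, and control replicate 4 lay above the other controls. The mean was 0.238 ± 0.284 CPM (SD, n = 4) in affected and 19.5 ± 11.7 CPM (n = 5) in control capsules, a log2 fold change of -6.06 (SE 0.68, edgeR adjusted p = 0.00627). This was the gene called in all 9 fits with a library left out, where its log2 fold change lay between -6.78 and -5.67. Its affected mean rests on 5 fragments.

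The second gene that fell, ENSCAFG00000007557, was well detected in controls, with 2370 fragments over the 5 libraries against 176 over the 4 affected ones and 7 in the affected adult. It stood at 1.82, 16.2, 9.75 and 7.82 CPM in affected replicates 1 to 4, and at 126.1, 101.4, 89.1, 114.5 and 106.5 CPM in control replicates 1 to 5. The highest affected library was far below the lowest control, and the adult affected library was the lowest of all 9. The means were 8.89 ± 5.91 CPM (SD, n = 4) and 107.5 ± 13.9 CPM (n = 5), a log2 fold change of -3.57 (SE 0.44, edgeR adjusted p = 0.00981). Without affected replicate 3 the adjusted p was 0.0532, at a log2 fold change of -3.61. On the FPKM scale, which divides by gene length, its control mean of 42.4 FPKM was above the 4.51 FPKM of ENSCAFG00000017302.

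Of the genes that rose, ENSCAFG00000000681 had the smallest adjusted p. It stood at 37.8, 14.5, 12.1 and 55.2 CPM in affected replicates 1 to 4, against 2.6, 2.34, 2.96, 3.73 and 1.36 CPM in control replicates 1 to 5. The affected libraries varied widely, with the adult and replicate 4 high and replicates 2 and 3 lower, yet none overlapped the controls. The means were 29.9 ± 20.5 CPM (SD, n = 4) and 2.6 ± 0.866 CPM (n = 5), an 11.5-fold difference (log2 fold change 3.52, SE 0.47, edgeR adjusted p = 0.0135). With control replicate 1 dropped the call was lost (adjusted p = 0.0526).

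The second gene that rose, ENSCAFG00000005294, was the most even among affected dogs of the 4 named genes. It stood at 14.3, 14.3, 14.2 and 11.4 CPM in affected replicates 1 to 4, the adult included, and at 1.3, 1.36, 2.56, 3.23 and 4.28 CPM in control replicates 1 to 5. The groups did not overlap, and the spread among controls was proportionally wider than among affected dogs. The means were 13.5 ± 1.45 CPM (SD, n = 4) and 2.55 ± 1.27 CPM (n = 5), a 5.21-fold difference (log2 fold change 2.38, SE 0.36, edgeR adjusted p = 0.0294). The call was lost in 5 of the 9 fits with a library left out: without affected replicates 2, 3 or 4 the adjusted p was 0.0754, 0.0595 and 0.0614, and without control replicates 1 or 3 it was 0.0806 and 0.0865. The log2 fold change in the 9 fits lay between 2.19 and 2.64. In FPKM the affected means of the pair of risen genes were 2.74 (ENSCAFG00000000681) and 6.87 (ENSCAFG00000005294), both under the median over all genes tested of 11.8.

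**Figure D3:**
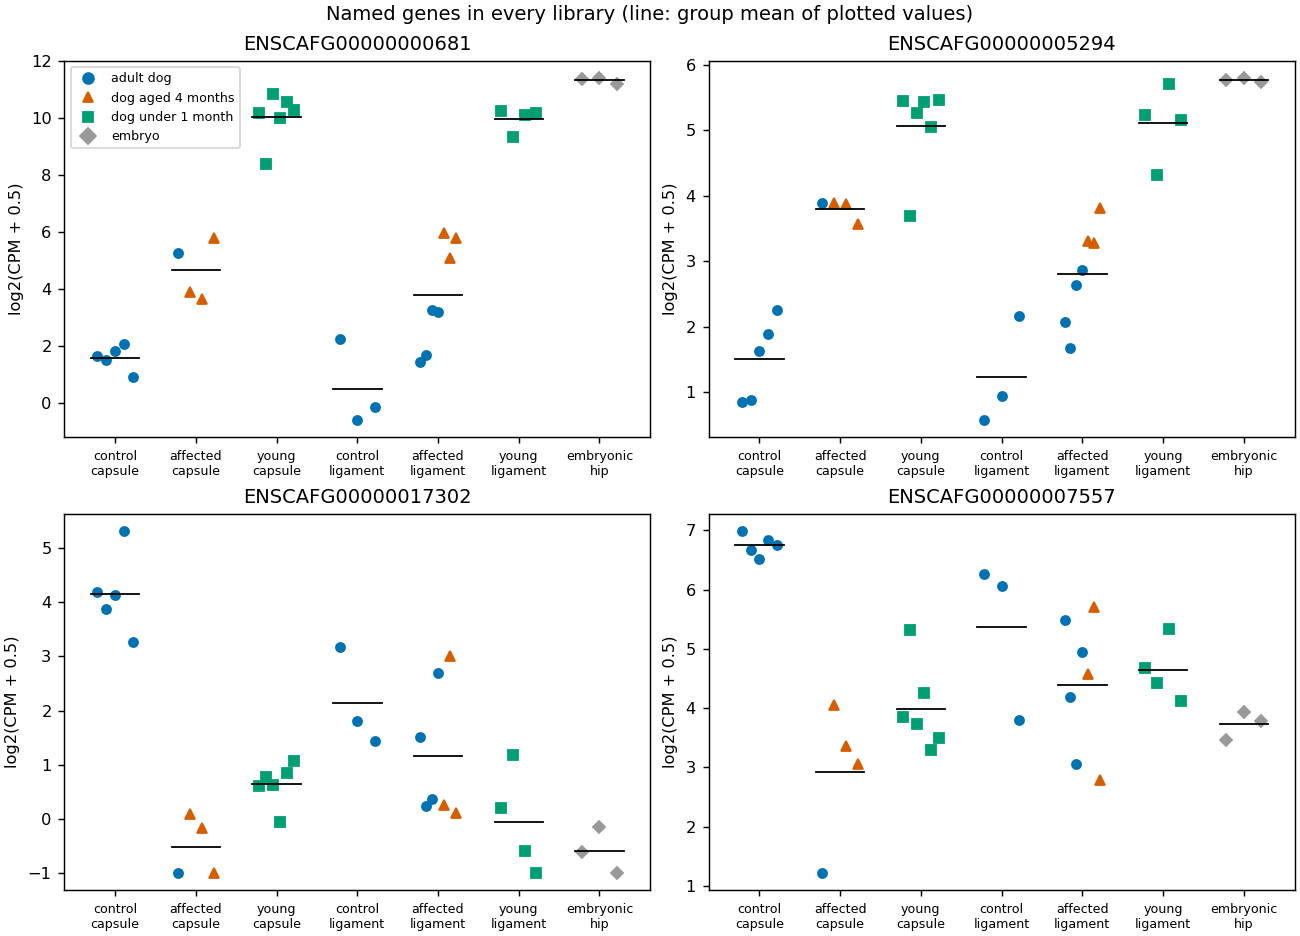
Level of the 4 named genes in each of the 32 libraries as log2(CPM + 0.5) (vertical axes, library sizes scaled over all 32), by group (horizontal axes), with colour and shape for the age class and a line at each group's mean of the plotted values. ENSCAFG00000000681 and ENSCAFG00000005294 have affected capsules between control and most young capsules, and ENSCAFG00000017302 and ENSCAFG00000007557 have control capsules above all affected and young capsules.

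The other genes called were 15 that rose and 11 that fell. With the named genes included, 11 of the 17 higher genes rose by at least 4-fold and 7 of the 13 lower genes fell by at least 4-fold. All 17 and all 13 had no overlap between affected and control libraries. Over all genes tested, 300 (2.36%) had no overlap: 163 (1.28%) had every affected library above every control and 137 (1.08%) had every affected library below, so most such genes were not called. The higher genes were mostly at low levels in controls, with control means from 0.239 to 19.4 FPKM (median 1.74) and affected means from 2.11 to 73.8 FPKM (median 8.92). The lower genes were mostly well expressed in controls, with control means from 2.24 to 176 FPKM (median 42.4) and affected means from 0.0561 to 43.5 FPKM (median 7.74). The median over all genes tested was 11.9 FPKM in control and 11.8 FPKM in affected capsules. The control level is part of the difference by which these genes were chosen, so their control levels are in part given by the choice.

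Each affected library carried the differences, which the lack of overlap in the called genes gave beforehand. For the 17 higher genes, the median distance from the control mean was 1.96 in affected replicate 1, 1.94 in replicate 2, 1.89 in replicate 3 and 2.30 in replicate 4, as log2 CPM scaled over all 32 libraries. For the 13 lower genes, these medians were -2.68, -1.57, -1.87 and -2.18. All 17 genes lay above and all 13 lay below the control mean in each of the 4 affected libraries, which follows from how the genes were chosen. The same medians over all genes tested lay between 0.00664 and 0.0395. The sizes of the medians in the called genes are also in part given by the choice, so they are a description only.

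**Figure D4:**
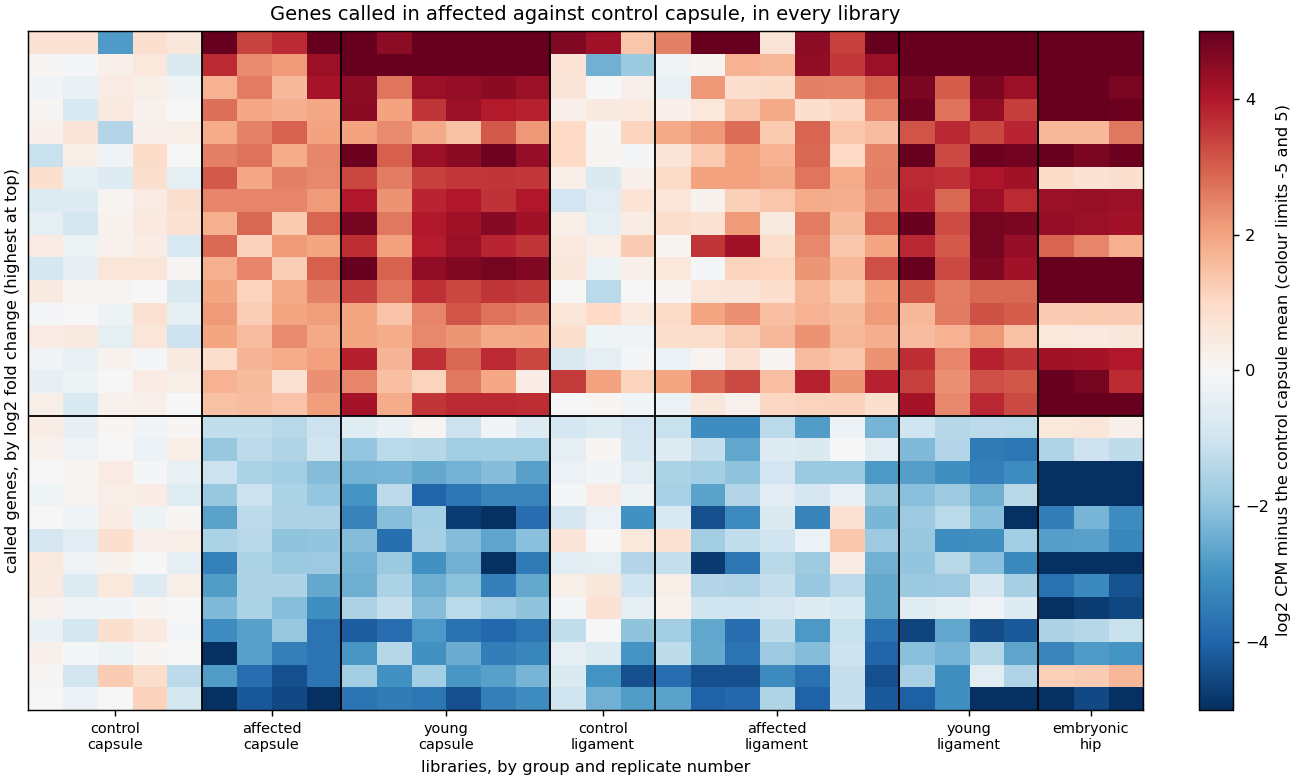
Log2 CPM minus the control capsule mean (colour, limits at -5 and 5) for the 30 called genes (rows, in order of log2 fold change) in all 32 libraries (columns, by group and replicate number). The 17 higher genes are red in affected capsules, and 16 of the 17 have a higher mean in young capsules, and the 13 lower genes are blue in affected capsules and mostly blue in young ones.

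The 3 affected dogs aged 4 months and the affected adult were also set against the 5 controls in separate contrasts of 1 fit. In the dogs aged 4 months 40 genes were called (0.315% of those tested), 19 higher (0.149%) and 21 lower (0.165%), and DESeq2 called 251. In the adult 11 genes were called (0.0865%), 9 higher (0.0708%) and 2 lower (0.0157%), and DESeq2 called 57. The adult contrast rests on 1 library, which is assumed to vary like the others. Both contrasts use the same 5 controls, so their values are given side by side and their overlap is not read as a result. The sets below were each chosen by the call in 1 contrast, which favours a larger median in that contrast, so their medians are a description only. The 19 genes called higher at 4 months had a median log2 fold change of 2.32 at 4 months and 1.73 in the adult. The 21 called lower had -2.58 and -1.05. The 9 genes called higher in the adult had medians of 2.98 in the adult and 1.26 at 4 months, and the 2 called lower had -4.66 and -2.52.

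These counts also rested on single libraries. For the dogs aged 4 months, dropping affected replicate 2, 3 or 4 gave 2, 12 and 14 genes. Dropping control replicates 1 to 5 gave 4, 92, 29, 4 and 13, and dropping affected replicate 1, the adult, gave 41. For the adult, the count fell without affected replicate 2 or 3 and without control replicate 1, 2, 3 or 5. It did not fall without affected replicate 4 or control replicate 4.

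By age class, ENSCAFG00000007557 was called in both contrasts, with a log2 fold change of -3.25 (SE 0.31, edgeR adjusted p = 0.001) at 4 months and -5.86 (SE 0.63, adjusted p = 0.00485) in the adult. ENSCAFG00000000681 was also called in both, at 3.38 (SE 0.49, edgeR adjusted p = 0.0247) and 3.86 (SE 0.61, adjusted p = 0.0424). ENSCAFG00000005294 had nearly the same size in both, 2.35 (SE 0.38, edgeR adjusted p = 0.034) and 2.46 (SE 0.51, adjusted p = 0.156), but passed the threshold at 4 months only. ENSCAFG00000017302 was called at 4 months (-5.74, SE 0.71, edgeR adjusted p = 0.00819). It had 0 fragments in the adult, which against a floor of 3 fragments in that library puts it at least 25-fold lower than the control mean (adjusted p = 0.0978). The difference between the age classes was not tested. Among the 30 genes called over all affected dogs, the adult lay within the range of the dogs aged 4 months in 9 of 17 higher and 6 of 13 lower genes. It lay farther from the controls than all 3 in 6 and 5 genes, and nearer to the controls in 2 and 2.

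Young capsules, from dogs under 1 month, gave a second reference. Affected and young capsules differed in 2406 of 12894 genes tested (18.7%), with 1415 (11%) higher and 991 (7.69%) lower in affected capsules, and DESeq2 called 3035. Without young replicate 1 edgeR called 1456. This comparison shares the 4 affected libraries with the comparison against controls. In 16 of the 17 genes that were higher in affected than in control capsules the young mean was higher still, and in 1 it lay between. Of the 17, 10 were called lower in affected than in young capsules and 0 were called higher. The median young minus affected difference over the 17 was 1.54 (log2). In 8 of the 13 genes that were lower in affected capsules the young mean was lower still, and in 5 it lay between the control and affected means. The place of the young mean over all genes tested is not given here, so these counts of means are a description only. Of the 11 of these 13 that were tested against young capsules, 1 was called in each direction, and the median difference of young minus affected over the 13 was -0.31.

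ENSCAFG00000000681 had its highest levels before adulthood, here on CPM scaled over all 32 libraries. It stood at 2685, 2710 and 2330 CPM in the 3 embryonic hips, and its lowest, median and highest young capsules were at 338, 1200 and 1861 CPM. Affected capsules were far below the young ones (-5.24 as log2 fold change, SE 0.60, edgeR adjusted p = 0.000387). In ligament, the 3 affected dogs aged 4 months stood at 61.6, 33.3 and 54.9 CPM, the 4 affected adults at 2.16, 2.71, 9.14 and 8.6 CPM, and the 3 controls at 4.18, 0.159 and 0.401 CPM. The affected dogs aged 4 months were above the affected adults and controls, while the affected adults overlapped the controls.

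ENSCAFG00000005294 followed a flatter course over the same groups. It stood at 54, 55.1 and 52.8 CPM in embryonic hip, and at 12.4 (lowest), 40.4 (median) and 43.6 CPM (highest) in young capsule. Affected capsules were lower than young ones (log2 fold change -1.30, SE 0.31, edgeR adjusted p = 0.0117), although young replicate 2, at 12.4 CPM, lay among the affected libraries. Ligaments of the affected dogs aged 4 months were at 9.47, 9.21 and 13.5 CPM, those of affected adults at 3.73, 2.71, 5.75 and 6.78 CPM, and those of controls at 0.996, 1.43 and 4.01 CPM.

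ENSCAFG00000017302 was high in control capsule only among the capsule groups. Its young capsules lay between 0.456 and 1.6 CPM, and the 3 embryonic hips held 4 fragments in all. It was too low to be tested between affected and young capsules. In ligament it stood at 8.57, 3.01 and 2.2 CPM in controls, under every control capsule, and the 7 affected ligaments had a lowest, median and highest value of 0.58, 0.784 and 7.56 CPM and overlapped the controls. ENSCAFG00000007557 lay at 9.28 (lowest), 13.4 (median) and 39.3 CPM (highest) in young capsule. Its log2 difference of affected from young capsule was -0.88 (SE 0.51, edgeR adjusted p = 0.242). In control ligaments it stood at 75.9, 65.9 and 13.4 CPM, and the 7 affected ligaments ran from 6.38 to 51.7 CPM with a median of 23.3 CPM and overlapped them.

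Whether the effect of the affected label differed between capsule and ligament was tested as an interaction in 19 libraries. Of 13606 genes, edgeR called 0 (0%) and DESeq2 0, with 290 (2.13%) at an unadjusted p under 0.05. Where no gene differs, that share would be near 0.05, and the share seen was lower. The 0 calls do not show that the effect was the same in both tissues. The 2 tissues share 4 dogs, which the fit treats as independent. The affected capsules included 1 adult of 4 and the affected ligaments 4 adults of 7, so tissue and age class are mixed in this test. The named genes were chosen for their difference in the same capsule libraries, which favours a larger effect in capsule beforehand, so their interaction values are a description only. Among the 4 named genes the largest value was that of ENSCAFG00000017302, with a capsule minus ligament difference in log2 fold change of -5.32 (SE 1.25, edgeR unadjusted p = 0.000374, adjusted p = 1). For ENSCAFG00000007557 it was -2.58 (SE 0.86, edgeR unadjusted p = 0.00731, adjusted p = 1). For the risen genes it was -0.46 (SE 1.34) in ENSCAFG00000000681 and 0.61 (SE 0.66) in ENSCAFG00000005294, each smaller than its standard error.

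In the ligaments of the 3 affected dogs aged 4 months, the same dogs whose capsules entered the comparison, all 17 higher genes had a higher mean log2 CPM than in the 3 control ligaments (median difference 1.79). In 15 of the 17 the 3 affected ligaments all lay above the 3 controls, which was so in 8.07% of all genes tested. All 13 lower genes had a lower mean there (median difference -1.02), and in 4 of the 13 the groups did not overlap, against 6.9% of all genes tested. Of all genes, 51.6% had a positive difference in that comparison (median 0.018). By library, the median distance of the 17 genes from the control capsule mean was 2.42, 1.59 and 2.46 in affected ligaments of dogs aged 4 months. It was 0.60, 0.90, 1.73 and 1.32 in those of affected adults and 0.55, -0.02 and 0.27 in control ligaments. In this median the lowest affected adult ligament lay just above the highest control ligament. For the 13 lower genes the medians were -1.88, -0.77 and -2.55 in affected ligaments of dogs aged 4 months. They were -1.21, -2.60, -3.09 and -1.19 in those of affected adults and -0.49, -0.15 and -1.01 in control ligaments. There every affected adult lay below the controls, while affected ligament replicate 6, aged 4 months, lay within the control range.

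The affected libraries were less alike than the controls. Over the 12718 genes, Pearson's r of log2 CPM between libraries was 0.852 to 0.934 (median 0.885) in the 6 affected pairs and 0.902 to 0.958 (median 0.931) in the 10 control pairs. These r values are across genes, which are not independent replicates. Between affected and control libraries the 20 values ran from 0.863 to 0.950 (median 0.905). Among the dogs aged 4 months the 3 pairs had a median of 0.917, against 0.905 for the 15 pairs of these dogs with controls. The adult affected library was closest to control replicate 4 (r = 0.950), and its r with the dogs aged 4 months was 0.857 to 0.886. Affected replicate 2 was closest to control replicate 2 (r = 0.939), and affected replicates 3 and 4 were closest to affected replicate 2 (0.917 and 0.934). The median gene had an SD of 0.517 (log2 CPM) over the 4 affected libraries, 0.471 over the 3 aged 4 months and 0.361 over the 5 controls.

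**Figure D5:**
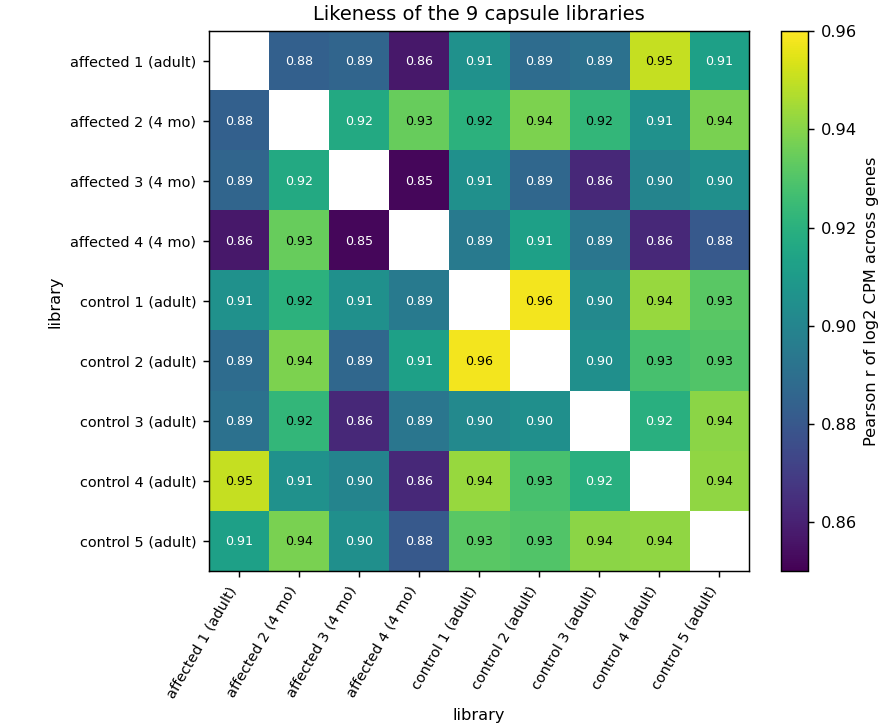
Pearson's r of log2 CPM over 12718 genes between each pair of the 9 capsule libraries (rows and columns; colour and printed value). The lowest value is 0.85, between affected replicates 3 and 4, and the highest is 0.96, between control replicates 1 and 2.

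Many large fold changes were not called. A difference of at least 2-fold was seen in 326 genes upward, with 17 called, and in 185 genes downward, with 13 called. The groups did not overlap in 93 (28.5%) and 55 (29.7%). At 4-fold or more there were 34 higher and 32 lower genes, with 11 and 7 called and 21 (61.8%) and 20 (62.5%) without overlap. Of the 23 uncalled genes that were at least 4-fold higher, 13 (56.5%) had over 50% of their affected signal in 1 library, and that library was affected replicate 4 in 11 genes and replicate 1 in 2. Of the 25 uncalled genes at least 4-fold lower, 5 (20%) had over 50% of the control signal in 1 library, control replicate 3 in 3 of them. The largest uncalled rise, in a gene chosen after its values were seen, shows the pattern. It stood at 14.6, 5.07, 7.99 and 975 CPM in affected replicates 1 to 4 and at 0.325, 0.195, 26.8, 4.47 and 8.16 CPM in control replicates 1 to 5 (log2 fold change 4.93, SE 1.79, edgeR adjusted p = 0.633). The largest uncalled fall was led by control replicate 5, at 39.5 CPM, with the other controls at 3.25, 2.53, 4.14 and 0.745 CPM and affected replicates 1 to 4 at 0.521, 0.188, 0.195 and 0 CPM (log2 fold change -5.38, SE 1.41, edgeR adjusted p = 0.288).

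The 11 genes that affected replicate 4, aged 4 months, dominated held between 51.4% and 97.2% of their affected signal in that library. They were chosen for a high value in this library, so its place above other libraries is in part given by the choice and is a description only. The affected and control groups did not overlap in 4 of the 11. The 61.8% without overlap among all genes at least 4-fold higher is no like reference. It stands for 21 of 34 genes, which include 11 called genes, none of them with overlap. The genes that replicate 4 dominated were all uncalled. The share over uncalled genes alone is not given here, so the 4 of 11 is a description only. The same holds for the counts that follow, which have no share over all genes beside them. The young capsule mean was above replicate 4 in 4 of the 11 and the embryonic mean in 6. The ligament of the same dog was the highest of 7 affected ligaments in 4 genes. In 4 of the 11 every ligament library stood under 5 CPM, against 43.6 to 890 CPM in this capsule, and all 4 had higher means in young capsule and in embryonic hip than in control capsule. Which cells this signal came from was not tested.

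The most abundant genes took a larger share of fragments in affected than in control capsules, a difference that did not pass the test. The 10 most abundant genes held 28%, 24.7%, 30.4% and 26% of fragments in affected replicates 1 to 4 and 20.6%, 18.7%, 20.4%, 25.3% and 20.6% in control replicates 1 to 5. Control replicate 4 lay within the affected range. The means were 27.3% ± 2.48 (SD, n = 4) and 21.1% ± 2.45 (n = 5) (two-sided exact permutation p = 0.0317, 0.0635 adjusted over 4 tests). The number of genes that together held 50% of fragments was 222, 306, 148 and 305 in affected and 423, 423, 428, 327 and 384 in control libraries. Here the groups did not overlap (exact permutation p = 0.0159, the smallest this design allows, adjusted 0.0635). With p taken as the share of absolute differences both adjusted values were 0.0476, so the outcome depends on how a two-sided p is defined. Library totals (exact permutation p = 0.349) and the number of genes at 1 CPM or more (p = 0.698) did not pass. In young capsules the 10 most abundant genes held 21.5% to 32.2% of fragments, and 110 to 363 genes held 50%. These ranges take in every affected value and overlap the control values. Affected dogs other than replicate 1 were younger than the controls, so age class and disease label are mixed here. Affected replicate 1, an adult, stood at 28% and 222 genes. Whether age changes these measures was not tested.

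The abundant genes themselves were partly shared. Altogether 18 genes were among the 10 most abundant of at least 1 of the 9 libraries, and 5 of these were so in all 9. Those 5 held 16.2% to 20.7% of fragments in affected and 10.4% to 18.3% in control capsules, so the ranges overlapped. Of the 18, edgeR called 0 in the comparison of affected with control capsules, against 0.236% of all genes tested. As shares of fragments, 0 of the 18 had all affected libraries above or all below the controls. The share over all genes on that scale is not given here. On the TMM-scaled CPM used for the tests, 2 of the 18 had all affected libraries above the controls and 0 had all below. Over all genes tested these were 1.28% and 1.08%. The most abundant gene of a library took 6.18% to 10.1% of fragments in affected and 4.82% to 7.75% in control capsules.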

How the data were processed

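The tools listed in the submitters' processing notes are Cuffdiff 2.2.1, TopHat2 2.0.13, Bowtie2 2.2 and cutadapt 1.8, with canFam3 as the genome. Annotation release and strand setting were not given there or in the file headers, so fragments of overlapping or near-identical genes may be shared. Per the file headers, the authors deposited an estimated count of fragments per gene and library, a scaled fragment signal and FPKM. Of the estimated counts 0.332% were not whole (tolerance 1e-06), and all were rounded. The ratio of deposited signal to FPKM gave relative gene length. Of the 9 capsule libraries' values 1 carried the status FAIL and was kept.

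Genes were tested with edgeR 4.0.16 (R 4.3.3; filterByExpr, TMM, robust quasi-likelihood F test, Benjamini-Hochberg over all genes tested) and called at an adjusted p under 0.05. DESeq2 1.42.0 and limma 3.58.1 (FPKM as log2(FPKM + 0.1)) were alternatives. The SE given with an edgeR log2 fold change is its absolute size divided by the square root of the F statistic, an approximate value. Log2 CPM used a prior count of 2. For per-library values a two-sided exact permutation test (SciPy 1.17.1) was used, where p is double the smaller one-sided share. Floors cover counting error only. The scripts were tested on simulated data. No pair of replicates agreed within sampling noise (lowest chi-square per gene 17.5 over 16 pairs).

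The members, lists and rules were chosen with earlier results of these data known. Identifiers matched no symbol in the RefSeq table used (0 of 24580), so the marker and pathway lists, set by symbol, were not analysed here, and no sequence was printed. The rule for named genes took the 2 called genes in each direction with the smallest adjusted p and no overlap between groups. Replicate numbers did not pair the samples.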

Additional observations from a re-analysis of the deposited data

Results flagged for a closer look

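In 28 groups of 4 to 10 values (4 measures per library, and CPM of the 4 named genes), 5 had a highest or lowest library far from the rest. Chance flags about 1 in 20 groups.

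Control capsule replicate 4 had the highest share of fragments in the 10 most abundant genes among controls, 25.3% against 20.6% in the next. The same library had the highest control level of ENSCAFG00000017302, 39.5 CPM against 17.9 CPM in the next. Affected capsule replicate 4 had the lowest affected level of ENSCAFG00000005294, 11.4 CPM against 14.2 CPM in the next, with the other 3 affected libraries at 14.2 to 14.3 CPM. Young capsule replicate 2 had the lowest young level of ENSCAFG00000005294, 12.4 CPM against 32.6 CPM in the next. It also had the highest young level of ENSCAFG00000007557, 39.3 CPM against 18.7 CPM in the next. In both genes this library lay on the side of the control capsules.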

How the results depend on the processing

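The replicate numbers did not pair the samples. For this check each gene's group mean was subtracted from log2 CPM, and the deviations were correlated between libraries. Same-numbered affected and control capsules had correlations of -0.086, 0.218, -0.215 and -0.373. For same-numbered affected and young capsules they were -0.055, 0.054, 0.231 and 0.058. Of the 4 affected libraries, 1 correlated best with its own number among controls. With the replicate block, 6 genes were called over all affected dogs, 18 at 4 months and 815 against young capsules, and ENSCAFG00000005294 was not called (log2 fold change 2.71, edgeR adjusted p = 0.113). The count over all affected dogs was 47 with no filter on low counts, 141 with DESeq2, 10 with limma on FPKM, 72 and 63 with the spread taken over 15 capsule or all 32 libraries, and 11 with age class as a covariate. It was 28 to 30 in 5 other settings, but the genes were not always the same. Of the main 30 genes, 21 were among the 28 called by limma's voom with library weights. The remaining settings of these 5 shared 29 or 30. The spread over 15 or 32 libraries shared 26 and 21, no filter 28, DESeq2 30 and limma on FPKM 8. With 1 library left out the count ran from 2 to 41, and the 41 without affected replicate 1 included 21 of the 30. At 4 months the count was 95 with no filter and 251 with DESeq2, and 2 to 92 with 1 library left out. In the adult it was 29 with no filter and 57 with DESeq2, and 2 to 14 with 1 library left out. Against young capsules it ran from 1456 to 2950 with 1 library left out. The interaction had 0 calls in all 22 alternatives run. The named genes, which were chosen with no overlap between the groups, kept their direction in all alternatives. Apart from fits with a library left out, ENSCAFG00000000681 lost its call with limma on FPKM (2.84, limma adjusted p = 0.0607). With age as a covariate, ENSCAFG00000005294 (log2 fold change 2.46) and ENSCAFG00000017302 were not called, as in the contrast of the affected adult, which is the same fit. With p as the share of absolute differences, chosen after seeing the data, the differences of 6.15 percentage points in the 10 most abundant genes and of -152 in the genes holding 50% of fragments passed (exact permutation, adjusted p = 0.0476). With 1 library left out these differences ran from 5.1 to 7.18 and from -172 to -119. The difference in genes detected was -50.4 at 1 CPM, 34.9 at 0.5 CPM and -103 to 25.3 with 1 library left out. The total differed by 260700 to 926100 fragments with 1 library left out. The alternatives for gene lists were not run because no list could be matched. Depth limited ENSCAFG00000017302 in affected capsules, where 5 fragments set its level. The cause of these shifts was not tested.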

Other observations

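Young capsule replicate 2 stood apart on the genes called between affected and control capsules. It was the lowest of the 6 young libraries in 15 of the 17 higher genes, while it was the lowest in 21.4% of all genes tested. Its median distance from the control capsule mean over the 17 genes was 2.35 (log2), against 3.66 to 4.01 in the other 5 young capsules. Over the 13 lower genes it was the highest young library in 6, against 22.7% of all genes tested. The dog identifier of this library begins with the same characters as those of the 3 affected dogs aged 4 months, and the meaning of that prefix is not given in the sources used here.

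In embryonic hip, 12 of the 17 higher genes had a mean above the young capsule mean. Of the 13 lower genes, 8 had an embryonic mean below the young capsule mean. The matching shares over all genes tested are not given here, so these counts are a description only. The median distance from the control capsule mean over the 17 genes was 4.96, 4.73 and 4.29 in the 3 embryonic hips and -3.45, -2.82 and -3.27 over the 13 genes.

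Gene length had little relation to the fold change over the 12718 genes (Spearman's rho -0.034, across genes). By library against the control mean, rho was -0.010, 0.114, -0.145 and -0.006 in affected replicates 1 to 4.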
